A study of Caenorhabditis elegans with 22 samples.

Results

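The histone genes of the nematode Caenorhabditis elegans are named his- and a number, and the 70 rows of the deposited count table whose gene name begins in that way, of 45461 rows in all, were followed across 8 groups of whole adult animals. The animals were kept on agar with 100 nM rotenone, an inhibitor of complex I of the mitochondrial respiratory chain, or with its solvent DMSO, and were sampled 1, 5, 10 and 20 days after the last larval stage (L4). Both treatments had 3 libraries at days 1, 5 and 10 and 2 libraries at day 20, which makes 22 libraries. The strain, and whether replicates came from separate cultures, are not given in the sources used here, so p-values measure the spread between these libraries, which may be technical. All 6 listed marker genes of each of intestine, muscle, neuron and epidermis and all 12 of the germ line were detected and tested. So were 7 of 9 sperm genes and 7 of 10 embryo genes, with the embryo gene hlh-1 at 0 in all groups. Few reads are enough to be tested, so this is a weak check of the labelled source, whole animals.

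Histones H2A, H2B, H3 and H4 form the core of the nucleosome, around which DNA is wrapped, and linker histone H1 binds where the DNA enters and leaves it. Most core histones are made from clustered, intronless genes during DNA replication, and those mRNAs end in a stem-loop that the stem-loop binding protein (CDL-1 in the worm) recognises, in place of a poly(A) tail. Replacement histones such as H3.3 are deposited outside replication and come from genes whose mRNAs are polyadenylated. The somatic cells of an adult worm no longer divide, whereas its germ line and the embryos it carries do. The libraries were made with a TruSeq RNA kit, a type of kit that as a rule captures polyadenylated RNA, so levels of mRNAs without a tail need not reflect their amount in the animal.

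Of the 70 genes, 32 had no count in any of the 22 libraries, 38 had at least 1 count and 25 had enough counts to be tested. The 7 genes with an intron and annotated untranslated regions, his-24, his-35, his-37, his-41, his-71, his-72 and his-74, held 95.8% of all histone gene counts, 732110 of 764097. Annotated as 1 coding exon with no untranslated region were 62 genes, of which 18 were tested and 31 had no count; these 62 held 4.19% of the counts. The remaining gene, his-57, has such an exon in 1 of its isoforms and had no count. A further 13 genes had counts but too few to be tested, 380 together, from 1 for his-65 to 82 for his-4.

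Many of these genes are near-identical copies, and the zeros followed the copies. In the Ensembl annotation 36 of the 70 genes share their gene name with another locus, and 31 of those 36 had no count in any library. Of the 34 genes with a name of their own, 1 had no count, namely his-39, whose annotated reading frame has 67 residues. How reads that match several loci were counted is not given in the sources used here, so a 0 at a shared name does not show that the gene was silent, and counts of a copy may be split with its paralogs. By histone, 9 of 17 H2A genes, 10 of 16 H2B genes, 5 of 19 H3 genes and 7 of 16 H4 genes had no count.

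**Figure D1:**
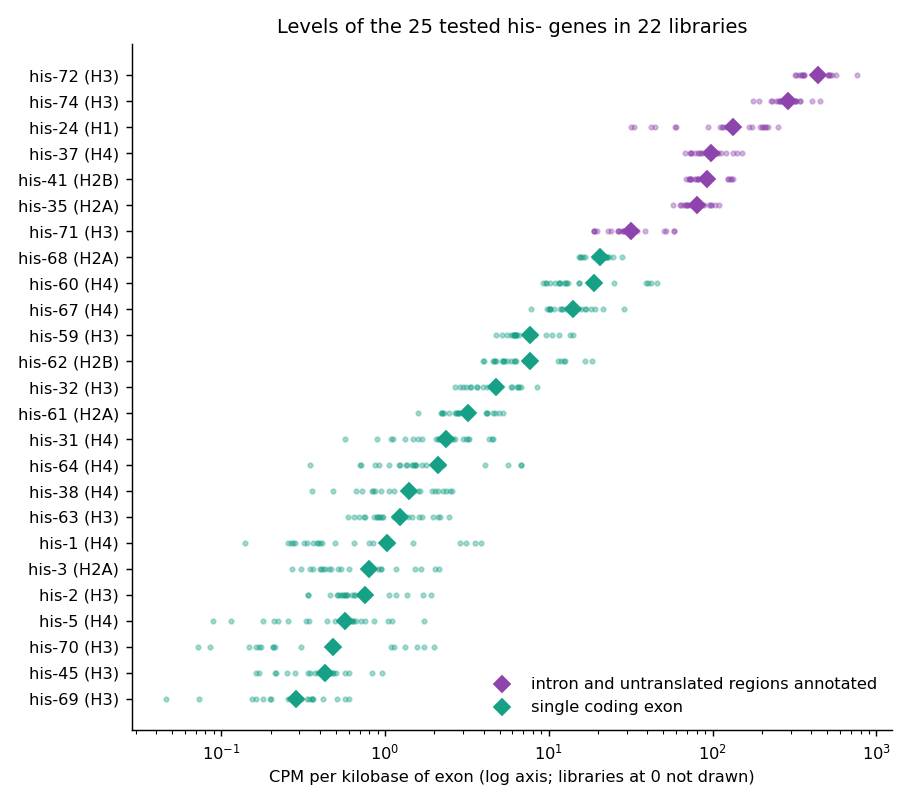
CPM per kilobase of exon (log axis) of the 25 tested his- genes, 1 small point per library and a diamond at the mean over 22 libraries, with the histone in brackets. The 7 genes with an intron and untranslated regions (purple) lie above the 18 single-exon genes (green), from 442 for his-72 to 31.9 for his-71 against 20.5 for his-68 to 0.286 for his-69.

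Levels between genes were compared as CPM (counts scaled to a common library size, with TMM factors) per kilobase of exon, averaged over all libraries. The replacement H3.3 genes his-72 (chromosome III, 12367475 to 12369050) and his-74 (chromosome V, 12659704 to 12660330) were highest, at 442 and 289 CPM per kilobase, followed by the linker histone gene his-24 (chromosome X, 14490094 to 14491119) at 133. Next came 3 neighbouring core histone genes on chromosome V between 9544659 and 9547607, his-37 (H4) at 98.2, his-41 (H2B) at 92.1 and his-35 (H2A) at 80.0, whose ranges over the libraries overlapped. The third intron-bearing H3.3 gene, his-71 (chromosome X, 7981382 to 7982070), averaged 31.9. The highest of the single-exon genes were his-68 (H2A) at 20.5, his-60 (H4) at 18.8 and his-67 (H4) at 14.0, and his-59 (H3) and his-62 (H2B) followed at 7.65 and 7.64. The intronless H3.3 genes his-70 and his-69, neighbours on chromosome III, were among the lowest tested, at 0.481 and 0.286. All coordinates are of build WBcel235.

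Total counts ran from 25769159 to 69961601 per library. A pair of libraries stood apart. Rotenone day 5 replicate 2 had 17.6% of its counts in ribosomal RNA genes, against 0.572% to 2.71% in the other 21 libraries. Its summed single-exon histone level was 36.0 CPM, and the other 2 rotenone day 5 libraries had 22.9 and 23.5 CPM. DMSO day 10 replicate 1 was high in both kinds of histone gene, with 41.5 CPM over the single-exon genes, against 27.7 and 28.4 CPM in the other 2 libraries of its group, and 1140 CPM over the intron-bearing genes, against 789 and 744 CPM. Its ribosomal RNA share was 2.5%. The part of ribosomal RNA in the histone values was not tested.

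The main change was with age: most of the tested single-exon core histone mRNAs were higher at day 20 than at day 1, in both treatments. In DMSO, 13 of the 18 tested single-exon genes rose and 3 fell at day 20, and in rotenone 11 rose and 3 fell. These 18 include the H3.3 genes his-69, which had no call, and his-70, which was among the 3 falls in both treatments. Gene his-70 was kept for testing only through its day 1 libraries, which favours a fall. Over all 25 tested genes, with and without introns, 15 rose and 5 fell in rotenone at day 20, and 18 rose and 4 fell in DMSO (edgeR quasi-likelihood test, adjusted p under 0.05). With age most of the transcriptome moved, and 64.8% of all 16822 tested genes passed in rotenone (31.4% higher, 33.4% lower) and 58.7% in DMSO (27.8% higher, 30.9% lower). The median log2 fold change of the 25 was 0.69 in rotenone and 0.91 in DMSO, against -0.02 and -0.01 over all genes. Both treatments have their own day 1 libraries, and all 15 genes that rose in rotenone were among the 18 that rose in DMSO. Leaving out day 20 replicate 1 of a treatment leaves 1 library in that group, and several of these calls were then lost, as given below. The log2 fold change of his-61, for example, was then 0.48 in rotenone and 0.51 in DMSO.

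The H4 gene his-60 (chromosome IV, 7487681 to 7487992, minus strand) is the most abundant single-exon gene that rose. At day 20 it had 12.5 and 13.1 CPM in rotenone and 14.2 and 12.2 CPM in DMSO, against 3.62, 3.65 and 3.87 CPM in rotenone and 2.89, 3.14 and 3.57 CPM in DMSO at day 1. No day 20 library overlapped a day 1 library, and the log2 fold change was 1.79 ± 0.24 in rotenone (SE, adjusted p = 2.2e-06) and 2.05 ± 0.24 in DMSO (adjusted p = 3.5e-07). At day 10 it had 5.46, 4.78 and 5.74 CPM in rotenone and 7.78, 4.09 and 4.77 CPM in DMSO, also above every day 1 library (log2 0.52 ± 0.22 and 0.77 ± 0.22, adjusted p = 0.049 and 0.0063). The day 10 call in DMSO was lost without DMSO day 10 replicate 1 (log2 0.44, adjusted p = 0.052), and that in rotenone without any 1 of 5 of its 6 libraries, day 10 replicate 2 excepted (adjusted p up to 0.13).

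Its neighbours in the same cluster, between 7485834 and 7488659 on chromosome IV, are his-59 (H3), his-61 (H2A) and his-62 (H2B), so the cluster holds all 4 core histones, and all 4 rose at day 20 in both treatments. The H2B gene his-62 had 6.18 and 4.68 CPM in rotenone and 6.8 and 4.2 CPM in DMSO at day 20, against 1.95, 1.93 and 2.17 CPM and 1.75, 1.72 and 2.31 CPM at day 1 of the same treatments (log2 1.44 ± 0.38 and 1.55 ± 0.37, adjusted p = 0.0024 and 0.0014). The groups did not overlap. For the H3 gene his-59 the day 20 levels were 4.75 and 4.29 CPM in rotenone and 5.54 and 3.96 CPM in DMSO, above all day 1 libraries, which ran from 1.97 to 2.59 CPM (log2 0.85 ± 0.27 and 1.11 ± 0.27, adjusted p = 0.01 and 0.0015). The H2A gene his-61 gained less, at 0.69 ± 0.25 in rotenone and 0.91 ± 0.25 in DMSO on the log2 scale (adjusted p = 0.023 and 0.0042), and already stood 0.95 ± 0.23 and 0.84 ± 0.23 above day 1 at day 10 (adjusted p = 0.0013 and 0.0042). In DMSO the calls of his-59, his-61 and his-62 at day 20 were lost without DMSO day 20 replicate 1 (log2 0.85, 0.51 and 1.16). In rotenone those of his-59 and his-61 were lost without rotenone day 20 replicate 1 (log2 0.81 and 0.48), and that of his-61 also without rotenone day 1 replicate 3 (log2 0.51).

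Among the rises at day 20, the largest fold changes were in genes with few counts. The H4 gene his-1 (chromosome V, 16042520 to 16042831) had 78 and 35 counts in rotenone and 72 and 26 in DMSO at day 20, against 3, 5 and 4 counts in rotenone and 2, 5 and 4 in DMSO at day 1. In CPM these were 1.1 and 0.975 in rotenone and 1.21 and 0.896 in DMSO, against 0.0862 to 0.128 and 0.0437 to 0.113 at day 1, without overlap (log2 3.32 ± 0.48 and 3.71 ± 0.49, adjusted p = 6.7e-06 and 2e-06). The H4 gene his-64 had 2.1 and 1.76 CPM in rotenone and 2.1 and 1.27 CPM in DMSO at day 20, with every earlier library at or below 0.705 CPM (log2 against day 1 2.51 ± 0.41 and 2.29 ± 0.41, adjusted p = 3.1e-05 and 7.2e-05). The rise lay between days 10 and 20, and at day 10 the gene differed from day 1 by 0.43 ± 0.45 in rotenone and 0.01 ± 0.48 in DMSO (adjusted p = 0.42 and 0.99).

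The H4 gene his-31 moved earlier. In DMSO it had 0.35, 0.177 and 0.338 CPM at day 1, 0.528, 0.675 and 0.671 CPM at day 5, 1.42, 1.0 and 1.02 CPM at day 10, and 1.41 and 0.93 CPM at day 20. The log2 fold change from day 1 was 1.16 ± 0.33 at day 5 (adjusted p = 0.006), the only rise among the 25 genes at that age, then 2.0 ± 0.3 at day 10 (adjusted p = 1.3e-05) and 2.11 ± 0.32 at day 20 (adjusted p = 1.4e-05). In rotenone it rose by 0.96 ± 0.29 at day 10 (adjusted p = 0.0071) and 1.33 ± 0.31 at day 20 (adjusted p = 0.00094). The day 5 call was lost without DMSO day 1 replicate 2 (log2 0.86, adjusted p = 0.051). The day 20 call in rotenone was lost without rotenone day 20 replicate 1 (log2 0.91, adjusted p = 0.062). The H3 gene his-63 had 1.01 and 0.864 CPM in rotenone and 0.688 and 0.896 CPM in DMSO at day 20, above the day 1 range of 0.244 to 0.393 CPM (log2 1.46 ± 0.33 and 1.19 ± 0.34, adjusted p = 0.00072 and 0.0053). The other single-exon genes that rose by day 20 in DMSO ranged from 0.87 for his-67 to 3.11 for his-5 on the log2 scale. Of these, his-67 and his-5 did not pass in rotenone, with 0.4 ± 0.2 (adjusted p = 0.086) and 1.09 ± 0.53 (adjusted p = 0.077), and neither difference between treatments passed the interaction test (adjusted p = 0.51 for both).

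**Figure D2:**
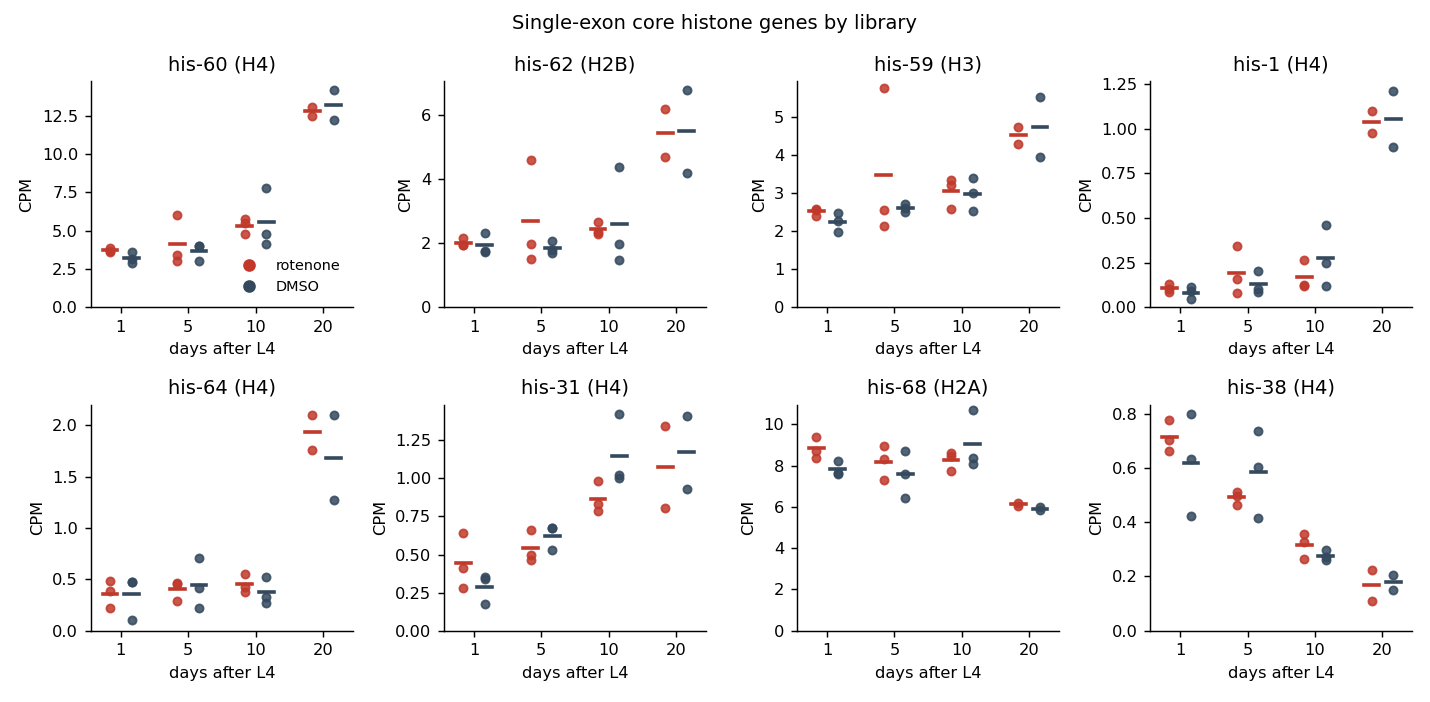
CPM of 8 single-exon core histone genes against days after L4, 1 point per library and a bar at the group mean, rotenone left (red) and DMSO right (dark). Genes his-60, his-62, his-59, his-1 and his-64 have their highest group means at day 20 in both treatments, whereas his-68 and his-38 have their lowest there.

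A few core genes went the other way. The H2A gene his-68, the most abundant single-exon gene (chromosome I, 9989132 to 9989515), had 6.18 and 6.05 CPM in rotenone and 5.97 and 5.86 CPM in DMSO at day 20, against 9.39, 8.72 and 8.38 CPM in rotenone and 8.2, 7.66 and 7.6 CPM in DMSO at day 1. Its groups did not overlap, and it fell by 0.53 ± 0.14 in rotenone and by 0.4 ± 0.14 in DMSO on the log2 scale (adjusted p = 0.0021 and 0.016). The call in DMSO was lost without DMSO day 20 replicate 1 (log2 -0.4, adjusted p = 0.088) or replicate 2 (log2 -0.38, adjusted p = 0.084), and the call in rotenone when a trend with gene length was removed (log2 -0.12, adjusted p = 0.35). The H4 gene his-67 lies next to it on the opposite strand and rose in DMSO at day 20, but not without DMSO day 20 replicate 1 (log2 0.49, adjusted p = 0.076). At day 5 it had fallen in rotenone, by 0.65 ± 0.19 (adjusted p = 0.0066), a call that the length trend also removed (log2 -0.09). The H4 gene his-38 (chromosome X, 7309564 to 7309875) had 0.225 and 0.111 CPM in rotenone and 0.151 and 0.207 CPM in DMSO at day 20, against 0.661, 0.776 and 0.704 CPM and 0.634, 0.798 and 0.422 CPM at day 1 of the same treatments. It fell by 1.96 ± 0.32 and 1.88 ± 0.34 (adjusted p = 2.8e-05 and 9.4e-05), and had already fallen by 1.2 ± 0.25 and 1.22 ± 0.27 at day 10 (adjusted p = 0.00039 and 0.00074).

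Summed over the single-exon genes of each core histone, H4 stood at 23.6 ± 0.98 CPM in rotenone and 25.1 ± 5.1 CPM in DMSO at day 20 (SD, n = 2 each), against 10.3 ± 0.97 and 8.66 ± 0.76 CPM at day 1 (n = 3 each). Single-exon H2B stood at 5.66 ± 0.94 and 5.79 ± 1.8 CPM at day 20, against 2.22 ± 0.21 and 2.01 ± 0.31 CPM at day 1, and H3 at 8.95 ± 0.72 and 9.66 ± 1.8 CPM, against 5.07 ± 0.52 and 4.37 ± 0.22 CPM. The H2A sum, most of it his-68, was 8.35 ± 0.26 and 8.33 ± 0.77 CPM at day 20, against 10.1 ± 0.71 and 8.91 ± 0.29 CPM at day 1. These class values rest in part on single genes. Without his-68 the H2A sum at day 20 was 1.73 times its day 1 mean in rotenone and 2.22 times in DMSO, and without his-62 the H2B sum, then 0.224 and 0.289 CPM, was 1.09 and 3.47 times. Without their most abundant member H3 stood at 1.74 and 2.31 times and H4 at 1.64 and 2.18 times. These sums are descriptions, and they were not tested.

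The sum over all single-exon genes was 44.7 and 48.8 CPM in rotenone and 42.3 and 55.8 CPM in DMSO at day 20, against 27.8 to 29.0 CPM and 23.8 to 25.6 CPM at day 1, which is 1.64 and 2.0 times the day 1 mean. Without his-68 the ratios were 2.06 and 2.59. Scaled by total counts without ribosomal RNA, in place of TMM, they were 1.74 and 2.45. Ribosomal RNA, which like most core histone mRNAs has no poly(A) tail, made up 1.27% to 1.97% of counts at day 20 and 0.799% to 1.92% at day 1. Whether the mRNAs summed here carry a tail was not measured. Of the 437 tested genes as short as the single-exon histone genes (312 to 411 bases of exon), 21.5% were called higher in rotenone and 26.5% in DMSO at day 20, with a median log2 of -0.62 and -0.2. Since whole animals were sampled, a change in the number of cells of a type cannot be told apart from a change in RNA per cell.

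Before day 20 fewer genes moved. At day 5 none of the 25 rose and 5 fell in rotenone, where 62.7% of all genes passed (27.3% higher, 35.4% lower), and 1 rose and 3 fell in DMSO, where 56.0% passed (24.6% higher, 31.3% lower). At day 10, 5 rose and 4 fell in rotenone (60.3% of all genes passed, 26.6% higher and 33.7% lower), and 11 rose and 2 fell in DMSO (56.3%, 26.7% higher and 29.6% lower). Of the 11 that rose in DMSO at day 10, 5 also rose in rotenone, namely his-31, his-41, his-60, his-61 and his-72. The interaction test called none of the other 6 different. The day 5 counts changed with a length term. With a trend of fold change with exonic length removed, 10 rose and 3 fell in rotenone at day 5, where 35% of all genes were called higher, and 8 rose and 3 fell in DMSO, where 33.2% were. Without DMSO day 10 replicate 1, 7 rose and 3 fell in DMSO, and without rotenone day 5 replicate 2, none rose and 5 fell in rotenone at day 5. The share of all genes called in these leave-out fits is not given here.

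**Figure D3:**
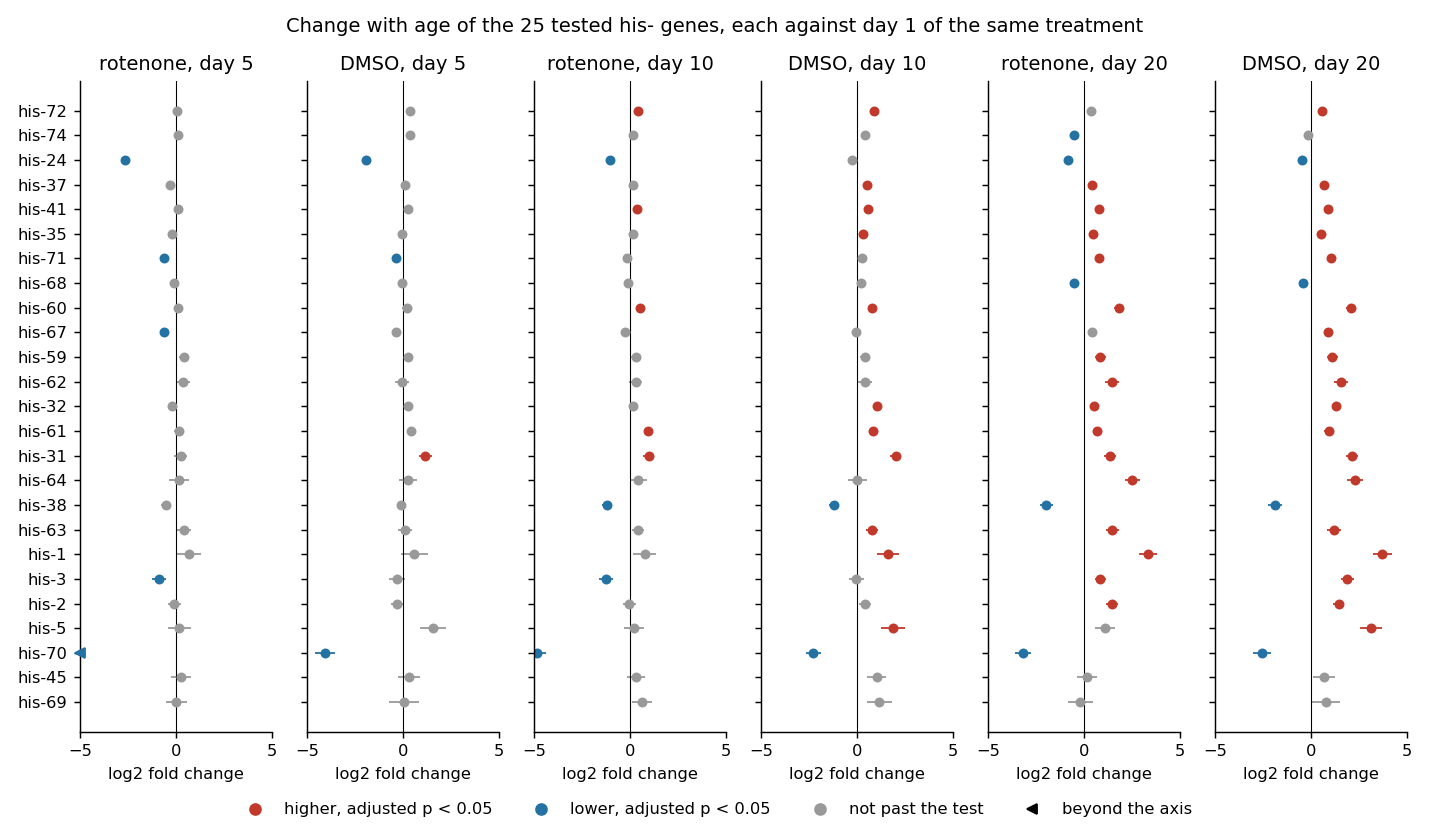
Log2 fold change from day 1 of the same treatment for the 25 tested his- genes, ordered by level with the most abundant at the top; bars are SE, red and blue points passed at adjusted p under 0.05, and a triangle marks his-70, beyond the axis. At day 20 most points lie right of 0 in both treatments, with 15 red in rotenone and 18 in DMSO, while his-24, his-38, his-68 and his-70 lie left in both.

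The 3 intron-bearing core genes on chromosome V were all higher at day 20 than at day 1, in both treatments. At day 10 all 3 had risen in DMSO, but only his-41 in rotenone. The H2B gene his-41 had 66.8 and 63.6 CPM in rotenone and 68.7 and 63.6 CPM in DMSO at day 20, against 36.7, 37.8 and 40.3 CPM and 37.2, 35.4 and 37.1 CPM at day 1 of the same treatments. That is a log2 fold change of 0.77 ± 0.12 and 0.86 ± 0.12 (adjusted p = 1.5e-05 and 4e-06), with no overlap. The H2A gene his-35 had 54.4 and 48.6 CPM in rotenone and 51.9 and 47.6 CPM in DMSO at day 20, against 36.2, 39.7 and 37.7 CPM and 34.5, 34.7 and 35.3 CPM at day 1 (log2 0.45 ± 0.11 and 0.52 ± 0.11, adjusted p = 0.0016 and 0.00045). The H4 gene his-37 had 57.1 and 51.4 CPM in rotenone and 60.5 and 48.3 CPM in DMSO at day 20, against 35.1, 45.0 and 41.1 CPM and 31.7, 37.1 and 33.7 CPM at day 1 (log2 0.43 ± 0.18 and 0.67 ± 0.18, adjusted p = 0.044 and 0.0031). The his-37 call in rotenone was lost without rotenone day 1 replicate 1 or 3 or either day 20 library (adjusted p up to 0.16), and that in DMSO without DMSO day 20 replicate 1 (adjusted p = 0.061). Gene his-41 shares 173 exonic bases with C50F4.6 on the same strand and his-37 shares 6 with nstp-10 on the opposite strand, and counts were not separated there.

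The H3.3 genes differed among themselves. Gene his-72, the most abundant, had 222, 264 and 230 CPM at day 1, 273, 226 and 232 CPM at day 5, 330, 322 and 293 CPM at day 10, and 326 and 280 CPM at day 20 in rotenone. In DMSO it had 206, 215 and 203 CPM at day 1, 288, 284 and 222 CPM at day 5, 489, 343 and 321 CPM at day 10, and 361 and 267 CPM at day 20. Day 10 lay above day 1 in every library of both treatments (log2 0.4 ± 0.15 in rotenone and 0.88 ± 0.15 in DMSO, adjusted p = 0.026 and 4.6e-05). At day 20 it passed in DMSO with 0.59 ± 0.16 (adjusted p = 0.0041) and not in rotenone with 0.34 ± 0.16 (adjusted p = 0.074), a difference that did not pass the interaction test (adjusted p = 0.64). The day 20 call in DMSO was lost without DMSO day 20 replicate 1 (log2 0.38), and the day 10 call in rotenone without rotenone day 1 replicate 1 or 3 or day 10 replicate 2 (adjusted p up to 0.082).

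Gene his-71 fell before it rose. It had 13.6, 11.1 and 11.2 CPM in rotenone and 11.7, 14.1 and 11.2 CPM in DMSO at day 5, below the day 1 values of 18.2, 20.4 and 17.3 CPM and 15.8, 15.7 and 16.6 CPM (log2 -0.63 ± 0.12 and -0.37 ± 0.12, adjusted p = 0.00013 and 0.011; without DMSO day 5 replicate 3 the log2 fold change in DMSO was -0.31, adjusted p = 0.057). At day 20 it reached 34.5 and 29.8 CPM in rotenone and 34.4 and 30.8 CPM in DMSO, above every other library (log2 0.78 ± 0.13 and 1.03 ± 0.13, adjusted p = 2.5e-05 and 8.9e-07). Gene his-74 had 131 and 111 CPM in rotenone at day 20, against 166, 186 and 172 CPM at day 1 (log2 -0.53 ± 0.21, adjusted p = 0.032). In DMSO it had 149 and 103 CPM at day 20, which overlapped the 141, 146 and 133 CPM of day 1 (log2 -0.16 ± 0.21, adjusted p = 0.54). The call in rotenone was lost on leaving out any 1 of its 5 libraries (adjusted p up to 0.23) and with the length trend removed (log2 -0.18, adjusted p = 0.18).

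Most counts of the intronless his-70 came from day 1. It had 23, 37 and 22 counts in rotenone and 20, 26 and 19 in DMSO at day 1, no count in any of 3 rotenone libraries and 0, 3 and 0 counts in DMSO at day 5, 0, 2 and 2 counts and 2, 5 and 6 counts at day 10, and 5 and 3 counts and 5 and 2 counts at day 20. Against the limit that 3 counts over the group allow, 0.0262 CPM, rotenone at day 5 was at least 27.3-fold lower than the 0.714 CPM of rotenone at day 1. In DMSO the ratio of day 5 to day 1 was 0.0547, with a 95% exact counting interval of 0.011 to 0.167. It fell at all 3 later ages in both treatments, with the highest adjusted p at day 20 (6.3e-06 in rotenone and 0.00017 in DMSO). With at most 6 counts in any later library, the gene was kept for testing only through its day 1 libraries. That selection by itself favours a fall from day 1, so these p-values are no independent support. Its neighbour his-69 had 0 to 15 counts per library and no call.

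Sperm mRNAs were also highest at day 1. The summed level of 9 listed sperm genes was 7.82 to 11.5 CPM in rotenone and 7.21 to 7.82 CPM in DMSO at day 1, 0.801 to 1.32 and 1.11 to 1.61 CPM at day 5, 1.75 to 2.88 and 2.0 to 3.2 CPM at day 10, and 3.15 to 3.25 and 3.48 to 3.68 CPM at day 20. Of the 7 tested, 6 fell at day 5 and 5 fell at day 20 in each treatment. Over all tested genes 35.4% and 33.4% fell at these ages in rotenone, and 31.3% and 30.9% in DMSO. The sperm gene ssp-9 was at 0 in all libraries of both treatments at day 5. Whether these cells carry the his-70 mRNA was not tested.

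**Figure D4:**
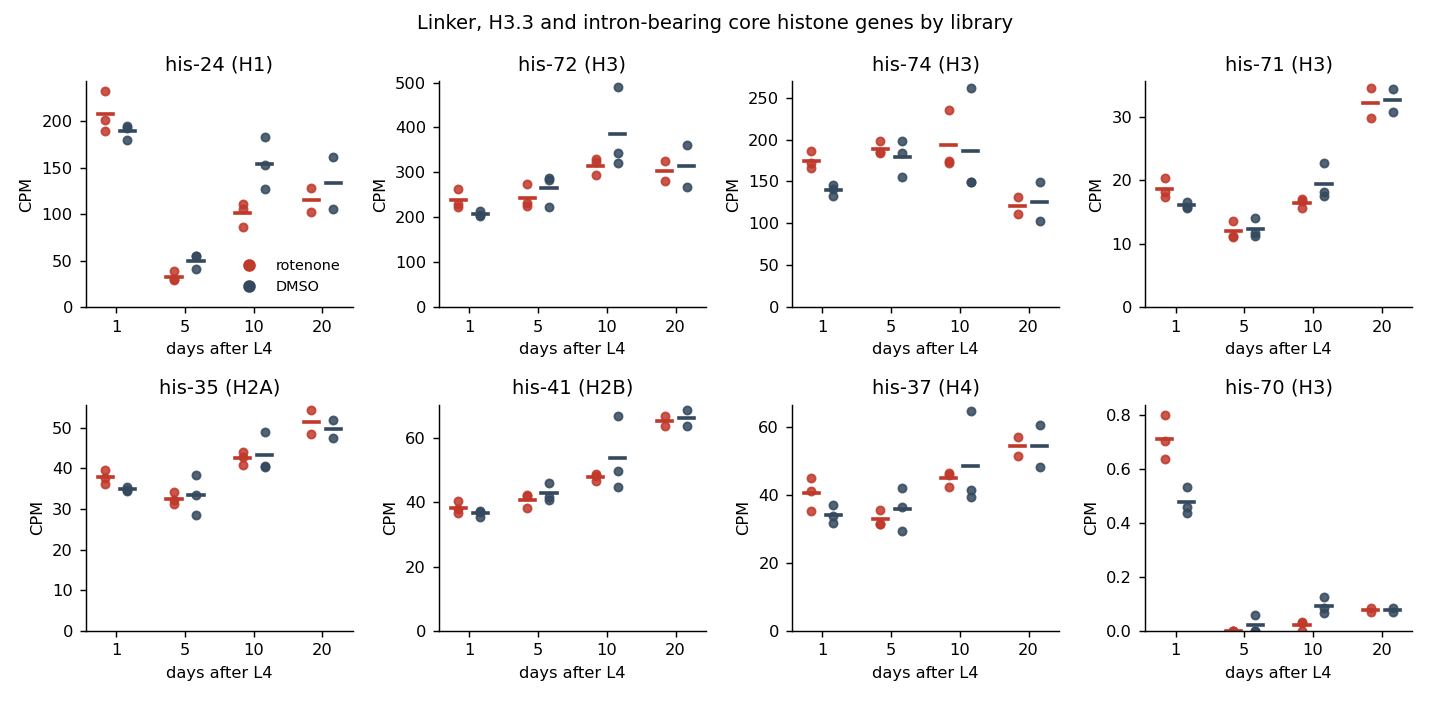
CPM of the 7 intron-bearing histone genes and of the H3.3 gene his-70 against days after L4, 1 point per library and a bar at the group mean, rotenone left (red) and DMSO right (dark). The linker gene his-24 has its lowest values at day 5 in both treatments, his-71 its highest at day 20, and his-70 its highest at day 1.

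The linker histone gene his-24 fell early and then partly recovered. At day 5 it had 38.7, 30.7 and 29.2 CPM in rotenone and 54.9, 54.5 and 40.8 CPM in DMSO, against 189, 233 and 201 CPM in rotenone and 180, 193 and 195 CPM in DMSO at day 1. It was 6.29-fold lower in rotenone and 3.77-fold lower in DMSO (log2 -2.65 ± 0.18 and -1.92 ± 0.17, adjusted p = 2.9e-10 and 1.9e-08). By day 10 it had returned to 106, 111 and 86.3 CPM in rotenone and to 183, 153 and 127 CPM in DMSO, and at day 20 it had 128 and 102 CPM in rotenone and 162 and 106 CPM in DMSO. Against day 1 it was still lower at day 10 in rotenone (log2 -1.04 ± 0.17, adjusted p = 2.9e-05) and not past the test in DMSO (-0.29 ± 0.17, adjusted p = 0.14). The fall at day 20 passed in both, -0.85 ± 0.19 in rotenone and -0.5 ± 0.19 in DMSO (adjusted p = 0.00074 and 0.03), but in DMSO it was lost without DMSO day 1 replicate 2 or 3 or DMSO day 20 replicate 2, down to a log2 of -0.21. Exons of his-24 share bases with 2 non-coding RNAs on the opposite strand, M163.16 and M163.19, from which reads of an unstranded kit cannot be separated.

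Between rotenone and DMSO no gene with a his- name passed the test at any age. Of the 25 tested genes, none was called between rotenone and DMSO at day 1, 5, 10 or 20, where 0.648%, 0.88%, 1.36% and 0.0654% of all tested genes were called (edgeR, adjusted p under 0.05). At an unadjusted p under 0.05 there were 2, 2, 3 and 0, where 19.4%, 9.24%, 11% and 4.75% of all genes were. DESeq2 called 1 gene, his-24 at day 10. The median log2 fold change of the 25 was 0.22, -0.03, -0.17 and -0.05, against 0.04, -0.01, -0.05 and 0.02 over all genes.

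The closest to a call was his-24. Its 3 rotenone libraries lay below its 3 DMSO libraries at day 5 and again at day 10, with the values given above, a log2 fold change of -0.61 ± 0.17 at both ages (adjusted p = 0.13 and 0.085). It was the 1 histone gene with that pattern at day 5, which 11.4% of all tested genes showed, and 1 of 5 at day 10, where 7.46% did. At day 10 the 2 libraries numbered 1 deviated together from their group means (correlation 0.43). Replicates 2 and 3 correlated across numbers (0.17 and 0.24) about as within them (0.22 and 0.16), so a pairing by number was not shown for them. With the replicate number as a block his-24 passed at day 10 (log2 -0.6, adjusted p = 0.0052). The same fit gave -0.61 at day 5 (adjusted p = 0.0079), where the numbers did not pair the libraries. Over all alternatives the log2 fold change stayed between -0.74 and -0.53 at day 5 (adjusted p 0.00047 to 0.46, 4 of 15 past the threshold) and between -0.74 and -0.45 at day 10 (adjusted p 0.00049 to 0.66, 5 of 14). The difference was 0.13 ± 0.17 at day 1 (adjusted p = 0.65) and -0.22 ± 0.21 at day 20 (adjusted p = 1.0).

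A pair of linker histone genes outside the his- names did pass at the same ages. In rotenone, hil-2 averaged 61.2 ± 6.5 CPM at day 5 and 103 ± 9.0 CPM at day 10, against 85.1 ± 1.7 and 159 ± 10 CPM in DMSO (SD, n = 3 each; log2 -0.47 ± 0.09 and -0.62 ± 0.09, adjusted p = 0.019 and 0.0022). Gene hil-3 averaged 16.5 ± 1.7 and 52.5 ± 7.2 CPM in rotenone, against 24.5 ± 0.69 and 84.5 ± 14 CPM in DMSO (log2 -0.57 ± 0.13 and -0.69 ± 0.13, adjusted p = 0.041 and 0.008). These calls depended on the fit: hil-2 lost its call under 5 of 15 alternatives at day 5 and 2 of 14 at day 10, and hil-3 under 7 and 3, with adjusted p up to 0.2 at day 5 and 0.58 at day 10. The summed level of 9 listed embryo genes was 35.8 to 44.7 CPM in rotenone and 53.6 to 58.8 CPM in DMSO at day 5, and 36.7 to 42.6 and 46.2 to 60.3 CPM at day 10. The sum was not tested, and of the 7 embryo genes tested 1, sdz-28, passed at each age, with hlh-1 at 0 in all groups. The part of embryos in the his-24, hil-2 and hil-3 values was not tested.

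At day 1, 23 of the 25 genes had a positive rotenone difference, as did 54.9% of all tested genes, and for 10 the rotenone libraries all lay above the DMSO libraries, a pattern that 20.5% of all tested genes showed. Among these was his-74, with 166, 186 and 172 CPM in rotenone and 141, 146 and 133 CPM in DMSO (log2 0.32 ± 0.18, adjusted p = 0.33). Another was his-3, an H2A gene, with 0.348, 0.362 and 0.448 CPM in rotenone and 0.153, 0.231 and 0.197 CPM in DMSO (log2 0.96 ± 0.35, adjusted p = 0.2). Short genes in general moved this way in this comparison. Exonic length and log2 fold change had a Spearman rho of -0.536 over 16555 genes (genes are no independent replicates), and the median log2 fold change of the 437 genes of 312 to 411 bases was 0.35. Fitted on the day 1 groups alone, 5 of 21 tested histone genes were called higher, and 14.3% of all 15049 genes tested in that fit.

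**Figure D5:**
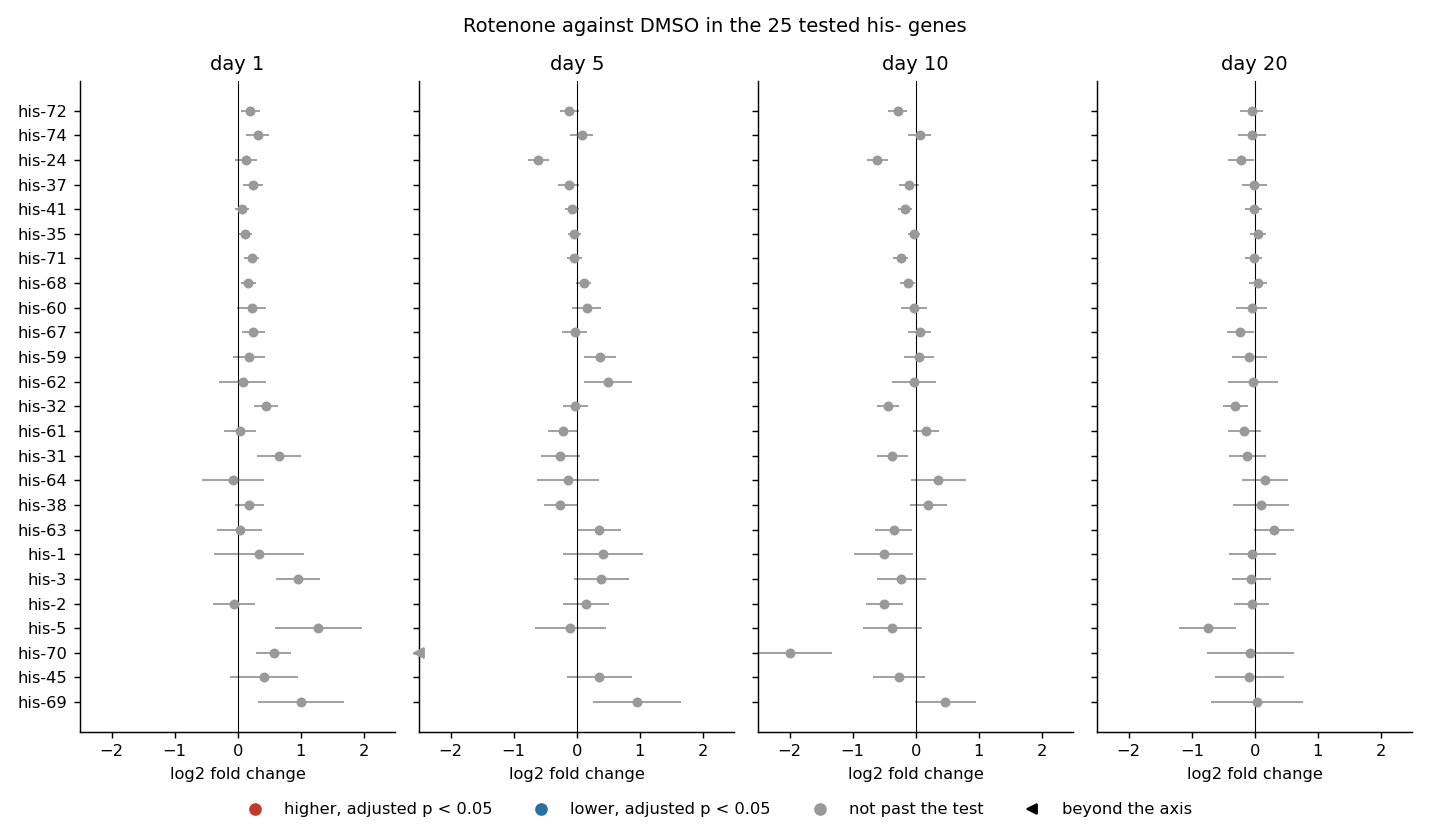
Log2 fold change of rotenone over DMSO at each age for the 25 tested his- genes, ordered by level with the most abundant at the top; bars are SE, and grey points did not pass at adjusted p under 0.05. All points are grey; his-24 lies left of 0 at days 5 and 10, and a triangle marks his-70 beyond the axis at day 5, where it rests on 0 and 3 counts.

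The rotenone effect at later ages was also set against that at day 1 as an interaction. None of the 25 genes passed, where 0.487%, 0.357% and 0.0416% of all tested genes did at days 5, 10 and 20 (edgeR), and 2, 7 and 3 had an unadjusted p under 0.05, where 10.6%, 12.6% and 9.55% of all genes did. DESeq2 called none. For his-24 the difference of effects was -0.74 ± 0.24 at both day 5 and day 10 (adjusted p = 0.25 and 0.2). It passed with the replicate block (adjusted p = 0.022 and 0.025), but replicate numbers did not pair the libraries at days 1 and 5. At day 10 only replicate 1 stood apart. Of the alternatives, 17 of 21 at day 5 and 17 of 20 at day 10 did not pass (adjusted p up to 0.55 and 0.46). The H3 gene his-32 had 1.64, 2.03 and 1.5 CPM in rotenone and 1.09, 1.49 and 1.24 CPM in DMSO at day 1, but 1.96, 2.01 and 1.86 CPM in rotenone and 2.67, 2.78 and 2.45 CPM in DMSO at day 10. The groups were apart in opposite directions at these ages, and the difference of effects was -0.89 ± 0.26 (adjusted p = 0.15). In DMSO alone his-32 rose by 1.04 ± 0.18 at day 10 (adjusted p = 7.3e-05). Gene his-71 had 18.2, 20.4 and 17.3 CPM in rotenone and 15.8, 15.7 and 16.6 CPM in DMSO at day 1, and 17.0, 16.7 and 15.7 CPM and 22.7, 17.5 and 18.1 CPM at day 10, again without overlap at either age (difference -0.46 ± 0.16, adjusted p = 0.26).

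Genes that act with histones were followed across the same ages. Over all tested genes, 27.3%, 26.6% and 31.4% rose in rotenone at days 5, 10 and 20, and 24.6%, 26.7% and 27.8% in DMSO. Falls were 35.4%, 33.7% and 33.4% in rotenone and 31.3%, 29.6% and 30.9% in DMSO. Of 31 tested DNA replication genes, 29, 24 and 18 rose in rotenone at days 5, 10 and 20, and 21, 15 and 6 in DMSO; falls were 2 in rotenone and 1 in DMSO, at day 20. At day 20 the 6 rises of 31 in DMSO lay below the 27.8% of all genes, and the 18 in rotenone above the 31.4%. The DNA ligase gene lig-1 and the GINS subunit gene psf-1 were among those higher at day 20 (log2 0.76 ± 0.14 and 0.48 ± 0.09 in rotenone, 0.41 ± 0.14 and 0.32 ± 0.09 in DMSO; edgeR adjusted p up to 0.017). Of 14 tested histone chaperone genes, 11, 11 and 9 rose in rotenone and 8, 8 and 4 in DMSO, and 1 fell in DMSO at days 5 and 20. The 4 rises of 14 in DMSO at day 20 lay near the share of all genes, and the 9 in rotenone above it. The chaperone gene chaf-2, for a subunit of the assembly factor CAF-1, rose by 0.54 ± 0.08 in rotenone and 0.46 ± 0.08 in DMSO at day 20 (adjusted p = 1.6e-05 and 0.0001). Of 10 genes of histone mRNA 3′ end formation and its small RNA pathway, 8, 7 and 6 rose in rotenone and 4, 6 and 5 in DMSO, with 2 falls in DMSO at day 20. One that rose was eri-1, an exonuclease gene whose human relative acts on histone mRNA ends, by 0.64 ± 0.08 and 0.42 ± 0.08 at day 20 (adjusted p = 1.8e-06 and 0.00022). Of 14 tested mitosis genes, 12, 3 and 2 rose in rotenone and 7, 4 and 1 in DMSO, and 4 fell in each treatment at day 20. None of these 4 lists had a gene called between rotenone and DMSO at any age. Of all tested genes 0.648%, 0.88%, 1.36% and 0.0654% were called at days 1, 5, 10 and 20, so these zeros lie near those shares.

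The replication list was thus most often called higher at day 5 and least often at day 20, in both treatments. Germ line and oocyte genes, too, had their rises mainly at day 5, when 27.3% of all tested genes rose in rotenone and 24.6% in DMSO. Of 12 germ line genes, 9 rose and none fell at day 5 in rotenone and 6 rose in DMSO, while at day 20 4 rose and 4 fell in rotenone and 6 fell in DMSO, with summed levels of 5420 to 5640 CPM in rotenone and 4780 to 5120 CPM in DMSO at day 20, against 6150 to 6360 and 7030 to 7560 CPM at day 1. Of 8 oocyte and eggshell genes, 7 rose at day 5 in rotenone and 6 in DMSO, and at day 20 1 rose and 2 fell in rotenone, and 1 rose and 6 fell in DMSO. Of 7 tested embryo genes 4 fell at day 20 in each treatment. In lists of 6 genes, neuron genes had 4 rises at day 20 in both treatments with 2 falls in rotenone and 1 in DMSO, muscle and epidermis genes had 6 falls in both, and intestine genes had 1 rise with 4 falls in rotenone and 5 in DMSO. Over all tested genes at day 20, 31.4% rose and 33.4% fell in rotenone, and 27.8% and 30.9% in DMSO. The 4 rises and 4 falls of germ line genes in rotenone lie near those shares. The part of these lists in the histone gene levels was not tested.

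Histone genes outside the his- names changed with age in both directions. The linker histone gene hil-1 had 4.14 ± 0.45 CPM at day 1, 25.3 ± 1.9 CPM at day 5 and 42.3 ± 2.4 CPM at day 10 (SD, n = 3 each) and 60.3 ± 0.47 CPM at day 20 (n = 2) in rotenone, and 4.07 ± 0.83, 28.6 ± 0.94, 45.7 ± 6.0 and 55.9 ± 6.1 CPM in DMSO. The log2 fold change at day 20 was 3.87 ± 0.14 in rotenone and 3.77 ± 0.14 in DMSO (adjusted p = 1.6e-14 and 1.9e-14), opposite in sign to his-24. At day 5, when his-24 fell, hil-2 and hil-3 fell by 1.71 ± 0.1 and 2.18 ± 0.13 in rotenone and by 1.31 ± 0.09 and 1.6 ± 0.13 in DMSO (adjusted p up to 3.5e-09). Also lower were hil-6 and hil-7, by 1.96 ± 0.32 and 2.3 ± 0.22 in rotenone and by 1.96 ± 0.32 and 2.84 ± 0.22 in DMSO (adjusted p up to 3.8e-05). Of the rest, hil-4 rose in DMSO only and hil-5 had no call. At day 20 hil-3 stood above day 1, by 0.39 ± 0.14 in rotenone and 0.7 ± 0.14 in DMSO (adjusted p = 0.019 and 0.00022), opposite to his-24. This list of 10 genes also holds the H2A.Z gene htz-1 and the centromeric H3 genes hcp-3 and cpar-1. At day 20, 3 of the 10 rose and 4 fell in rotenone, and 4 rose and 3 fell in DMSO. Over all tested genes 31.4% rose and 33.4% fell in rotenone, and 27.8% and 30.9% in DMSO, so these counts lie near those shares.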

How the data were processed

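RNA of whole worms was sequenced in 22 libraries. Per the labels' protocols, 2 μg of total RNA per sample entered a TruSeq RNA kit. The authors deposited whole-number read counts per gene, not normalized. TopHat 1.4.1, HTSeq and build WBcel235 are named, per the submitters' processing notes. The annotation, read filters and handling of reads with several matches are not given in the sources used here. The deposited RPKM table was not used.

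Histone genes, gene lists and alternatives were chosen with earlier results of these data known. Class was assigned from annotated coding length (Ensembl release 115, all 70 genes matched), and linker and H3.3 genes from textbook knowledge. K03A1.1 and W09H1.2, now called his-40 and his-73, lie outside the name rule and were left out.

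For 16822 genes kept by filterByExpr, edgeR 4.0.16 (R 4.3.3) fitted 1 quasi-likelihood model to the counts, with TMM scaling and 1 coefficient for each of 8 groups. Benjamini-Hochberg adjustment ran over these genes in each of 13 comparisons. Changes with age within rotenone were added after seeing the data. SE is the log2 fold change divided by the root of its F statistic. CPM use the library's counts over tested genes times its TMM factor. The fit was tested on simulated data. Depth ran from 25769159 to 69961601 counts, and the common biological coefficient of variation was 0.135. Intervals and limits cover counting error only. No pair of replicates agreed within sampling noise.

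Named genes were the linker and replacement genes, the 2 with the highest mean CPM per core histone, and in each comparison up to 4 called genes per direction with the largest change, at least 20 mean counts and no overlap. Others (his-3, his-5 and his-59) were named after their values were seen. Same-numbered rotenone and DMSO libraries correlated, as deviations from their group means, at 0.43, 0.22 and 0.16 at day 10. Pairs of replicates 2 and 3 across numbers reached 0.17 and 0.24 there. Only replicate 1 thus stood apart, and a pairing by number was not shown for replicates 2 and 3. At day 1 the correlations were 0.04, 0.11 and 0.05, at day 5 0.06, 0.03 and 0.16, and at day 20 0.1 for both pairs, so there libraries share only a number. Alternatives were RLE size factors, other filters, the replicate block, a length trend removed, DESeq2 1.42.0, fits of the compared groups alone and leaving out each library.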

Additional observations from a re-analysis of the deposited data

How the results depend on the processing

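No call of a his- gene with age changed direction under any alternative run for it, and neither did his-24 between rotenone and DMSO at days 5 and 10. Of 39 calls with age in DMSO, 22 held under every alternative and 17 were lost under at least 1. In rotenone 21 of 34 held. For rotenone against DMSO, counts of histone genes called, 0 in the main test, were 1 (his-74), 5 and 1 (his-3) at day 1 with the replicate block, with only the groups compared, and without DMSO day 10 replicate 1 in the shared spread. At day 5 the count was 1 with no filter, with the block, with the length trend removed and with both. At day 10 it was 1 with no filter, with the block, with the length trend removed and with DESeq2, and 2 with block and length trend together (his-24 and his-72). Each other single call at days 5 and 10 was his-24. For the interaction, his-24 was the 1 call at days 5 and 10 with no filter, with the block, and with block and length trend, and at day 5 with only the groups compared. Leaving out any 1 library of the groups compared gave 0 to 0 in all these comparisons. Calls with age at day 5 in DMSO, 4 in the main test, were 2 at a mean of at least 50 counts, 8 with the replicate block, with only the groups compared and without DMSO day 10 replicate 1 in the shared spread, and 11 (8 rises) with the length trend removed, with or without the block. In rotenone at day 5, against 5, they were 8 with only the groups compared, 13 (10 rises) with the length trend removed and 16 (13 rises) with the block as well, where the main test had 0 rises. With the length trend removed, the share of all genes called higher at day 5 also grew. It was 35% in rotenone, against 27.3% in the main test, and 33.2% in DMSO, against 24.6%. At a mean of at least 50 counts, with 14 genes tested, day 10 gave 2 in rotenone and 6 in DMSO, against 9 and 13, and day 20 gave 11 in each, against 20 and 22. Among the calls lost there were his-24 and his-68 at day 20 in DMSO, his-37 at day 20 in rotenone, and his-41, his-60 and his-72 at day 10 in rotenone. Leaving out 1 library gave 4 to 5, 7 to 8 and 14 to 18 calls at days 5, 10 and 20 in rotenone, and 3 to 5, 10 to 14 and 14 to 22 in DMSO. Among comparisons between rotenone and DMSO and their interactions, the block moved calls only as given. With it the day 20 age counts were 22 in rotenone, against 20, and 22 in DMSO, against 22. Scaling by total counts would shift every log2 fold change by 0.28 at day 20 in DMSO, by -0.17 at day 5 in rotenone and by 0.11 for rotenone against DMSO at day 1, and by 0.1 or less in the other comparisons. It would turn none of the called genes. Depth limits the low members: his-1, his-5, his-69 and his-70 had as few as 0 to 2 counts in a library. Most counts of calls in this section are given without the share of all genes called in the same fit. They show how far calls depend on the fit, and no trait of histone genes can be read from them. The cause of the changed counts was not tested.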
